A study of Arabidopsis thaliana with 8 samples.

Results

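The genes described here had their highest array signal at 16h in rosettes of the *Arabidopsis thaliana* pgm mutant. For each of 22746 probe sets (groups of short probes for 1 transcript), log2(intensity + 16) was averaged per hour, and the highest mean of the 5 other hours was subtracted from the 16h value. The 100 probe sets with the largest margin were taken. Of these, 56 have 1 gene in the platform's gene table and are described here, 3 have several genes and 41 have none. The rule leaves out *AT4G33980* and *COR27*, but their margins of -0.018 and -0.19 lay outside the 100 in any case. The genes were thus selected on their measured 16h values, and the margins below are descriptions without a test. The highest of the other hours entered the rule as well, as the level that 16h had to exceed.

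All 8 one-colour arrays carry RNA of full rosettes of the pgm mutant in the Col-0 background, harvested at 5 to 6 weeks of age. The hours are 00h and 12h with 2 arrays each, lettered A and B, and 04h, 08h, 16h and 20h with 1 array each. The design text speaks of 8 times and the labels name 6 hours, so arrays A and B are taken as replicates from the labels alone. For a sample, the labels' protocols describe 15 pooled rosettes frozen in the growth chamber. The labels used here give no hours of light and dark, no treatment and no second genotype, and they leave unsaid if A and B are different plants. P-values therefore measure only the spread between arrays, which may be technical.

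As background, pgm plants lack the plastidial phosphoglucomutase, which supplies the precursor of starch in leaves. Without starch, sugar runs short in the dark, and many genes that are repressed by sugar are then expressed. Such genes include those of amino acid and lipid breakdown, and their control involves the energy-sensing kinase SnRK1 and bZIP transcription factors. The circadian clock adds peaks at set hours, among them around and after dusk.

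The arrays differed in ways that touch these genes. On 00h A and 12h A the hybridisation control CreX-3 read 4467 and 3581.7, and on the 6 other arrays, 16h included, between 1101.5 and 1544.4. The ratio of the actin 3' to the 5' probe set, a sign of RNA integrity, was lowest at 16h (2.29) and between 2.53 and 3.19 elsewhere. Its part in the 16h levels was not tested. The 5 leaf markers (*RCA*, *LHCB4.1*, *LHCB4.2*, *PRK* and *SBPASE*) read between 1179.8 and 6704.5 on every array. *LHCB4.1* and *LHCB4.2*, of light-harvesting proteins, were lowest at 16h (2765.0 and 1179.8), and *LHCB4.2* fell by 0.84 ± 0.30 log2 units from 00h to 12h (SE; limma adjusted p = 0.0463). The root marker *PYK10* ran from 89.3 to 300.0, with 113.7 at 16h. *PYK10* fell by 1.11 ± 0.21 log2 units from 00h to 12h and was higher by 0.82 ± 0.17 at 20h and 00h than at 04h to 12h (SE; limma adjusted p = 0.00182 and 0.00251), and its part in the differences below was not tested.

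The margins of the 56 genes ran from 0.39 to 0.96 with a median of 0.48 on the log2 scale, and 24 were at least 0.5. Among all 100 probe sets the largest was 1.74, and the 5 margins above 1 belonged to probe sets without a single named gene. The number of probe sets that stood out in this way differed between hours. With the margin of the last of the 100 as the limit, 100 probe sets stood out at 16h, 163 at 20h, 317 at 08h, 338 at 12h, 457 at 04h and 532 at 00h. With a margin over 1 there were 5 at 16h, 1 at 20h, 25 at 08h, 16 at 12h, 41 at 04h and 36 at 00h.

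Near the limit the margins differ little. The last genes inside were *TON1B*, of cortical microtubule organisation, *AT3G60410* and *AT4G15690*, each with a margin of 0.39. *TON1B* read 26.3 and 48.2 at 00h, 47.8 at 04h, 50.7 at 08h, 37.5 and 36.2 at 12h, 71.5 at 16h and 46.8 at 20h. *AT3G60410* read 25.6 and 14.1 at 00h, 19.5 at 04h, 32.2 at 08h, 10.7 and 16.1 at 12h, 47.2 at 16h and 26.0 at 20h. Just outside stood a probe set without a gene, *AT3G07010* and *TET15*, a tetraspanin gene, also at 0.39. *AT3G07010* read 153.7 at 16h and 67.2 to 121.7 elsewhere, and *TET15* 7.5 and 0.7 to 2.9. The 16h array was above each of the 7 other arrays for 55 of the 56 genes. The exception was *AT4G15690*, with 53.1 and 187.6 at 00h, 9.0 at 04h, 76.8 at 08h, 15.3 and 16.9 at 12h, 139.5 at 16h and 61.0 at 20h. The A and B arrays of an hour give a scale for the margins: the median difference between them was 0.27 log2 units at 00h and 0.20 at 12h over the 56 genes. Over all probe sets these medians were 0.19 and 0.22. For 38 genes the margin exceeded the A to B difference at both hours. The rule chose the largest margins, so this count is not a test of them.

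**Figure D1:**
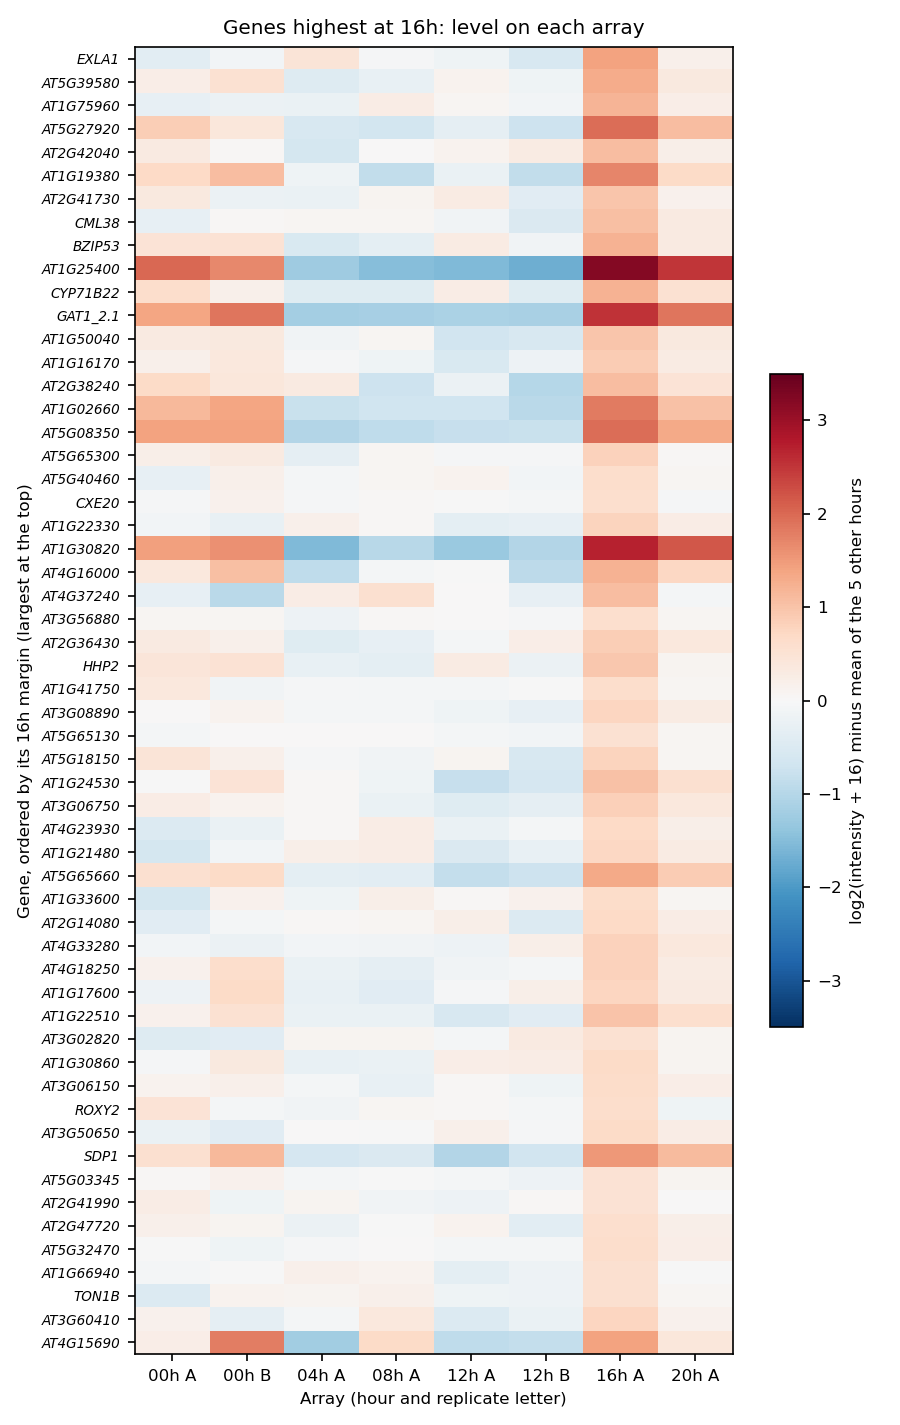
Level of the 56 genes on each of the 8 arrays, as log2(intensity + 16) minus the gene's mean over the 5 hours other than 16h, with genes ordered by 16h margin. The 16h column is red throughout because it chose the genes; among the other columns, 20h and 00h are red and 04h to 12h blue for some genes and near 0 for the rest.

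After 16h, the hour with the next highest mean was 20h for 29 genes, 00h for 16, 08h for 6, 04h for 3 and 12h for 2. The hour 20h came next for 51.8% of the genes and for 38.7% of the 2385 probe sets that were highest at 16h by any margin. The lowest mean fell at 04h, 08h or 12h for 45 of the 56. No share over all probe sets was taken for this count, so it does not set the genes apart. Whole rosettes were measured, so a change in RNA per cell and a change in the number of cells of a type cannot be told apart.

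Between hours that are not 16h, the genes that passed a test were higher at 20h or 00h and lower at 12h or at 04h to 12h. These hours are not wholly independent of the rule, which used the highest of them for each gene. The tests used limma on the 13647 probe sets left after the dimmest 40% by mean were removed, with Benjamini-Hochberg adjustment over all of them and a threshold of 0.05. Of the 56 genes 42 were tested and 14 were too dim. The mean includes 16h, and 2 of the 42, *AT4G18250* and *AT3G60410*, passed the filter only through that array. From 00h to 12h, with 2 arrays each, 16 of the 42 fell and 0 rose. Over all probe sets tested 18.6% were lower at 12h and 21.9% higher. In either direction the share among the genes was 38.1%, near the 40.5% of all probe sets. At an unadjusted p under 0.05, 1 gene, *AT3G02820*, was higher at 12h (log2 change 0.55 ± 0.23, SE). The median change of the 42 genes was -0.35, against 0.06 over all tested. Within the A arrays the median was -0.31, against 0.04 over all tested, and within the B arrays -0.47, against 0.07. In each pair 33 of 42 genes were lower. The share of all probe sets lower in each pair was not taken, so this count does not set the genes apart.

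The mean of 20h and 00h was set against the mean of 04h, 08h and 12h, with the 16h array in neither. Here 19 of the 42 genes (18 of 40 with 16h left out of the filter) were higher at 20h and 00h and 0 lower, while 20.5% of all probe sets tested were higher and 24.8% lower. The share called in either direction was 45.2% for the genes and 45.3% over all. *AT4G37240* alone was lower at an unadjusted p under 0.05. For the hours on either side of 16h, 13 of 42 genes were higher at 20h than at 12h and 0 lower, also at an unadjusted p. Over all tested 13.1% were higher and 13.1% lower, 26.2% together. These comparisons share arrays and are not separate evidence, and 04h, 08h and 20h, with 1 array each, were assumed to vary like 00h and 12h. With every array scaled to 1 median, the median of all probe sets shifted by -0.16 at 12h vs 00h and by 0.16 for 20h and 00h against the rest. The calls over all probe sets then became 2348 higher and 3205 lower, from 2992 and 2536, and 3639 higher and 2511 lower, from 2802 and 3382. The genes' own counts in these comparisons were then 17 lower and 0 higher, and 22 higher and 0 lower.

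Among the 10 genes placed in metabolism, 7 were tested and 6 of them were higher at 20h and 00h than at 04h to 12h. Over all probe sets tested 20.5% were higher and 45.3% were called in either direction. Roles were assigned after the values were seen, so counts per role are descriptions only. *GAT1_2.1*, of the glutamine amidotransferase family, read 87.0 and 130.0 at 00h, 1.4 at 04h, 1.6 at 08h, 2.3 and 2.1 at 12h, 212.7 at 16h and 128.9 at 20h. No share over all probe sets was taken for arrays of 04h to 12h that do not overlap with 00h and 20h, here or below. For *GAT1_2.1* the signal was near 0 from 04h to 12h, and these arrays did not overlap with those of 00h and 20h. The mean of 20h and 00h exceeded that of 04h, 08h and 12h by 2.91 ± 0.20 log2 units (SE; limma adjusted p = 2.83e-06), or 1.47 with an offset of 64. From 00h to 12h it was -2.75 ± 0.25 (limma adjusted p = 2.26e-05), or -1.37 with that offset, since the offset weighs more on dim signals.

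*AT1G30820* encodes a CTP synthase, which makes the pyrimidine nucleotide CTP from UTP. Its intensity was 340.7 and 380.1 at 00h, 28.8 at 04h, 50.5 at 08h, 37.1 and 48.5 at 12h, 825.1 at 16h and 572.2 at 20h. The arrays of 20h and 00h lay between that of 16h and those of 04h to 12h, and the log2 change from 12h to 20h was 3.33 ± 0.26 (SE; limma adjusted p = 3.43e-05). From 00h to 12h it was -2.68 ± 0.22.

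Both lipase genes were lowest at 04h, 08h and 12h. *SDP1*, named SUGAR-DEPENDENT1, encodes a triacylglycerol lipase that breaks down seed oil in seedlings. It read 106.5 and 165.3 at 00h, 39.7 at 04h, 42.3 at 08h, 25.1 and 36.2 at 12h, 220.6 at 16h and 163.0 at 20h. *AT1G02660*, a plastid lipase gene, read 135.3 and 164.9 at 00h, 24.2 at 04h, 26.3 at 08h, 26.9 and 19.7 at 12h, 227.7 at 16h and 125.2 at 20h. Apart from 16h, which chose the genes, both had all arrays of 20h and 00h above all arrays of 04h, 08h and 12h. From 00h to 12h *SDP1* fell by 1.69 ± 0.27 on the log2 scale (SE; limma adjusted p = 0.00068) and *AT1G02660* fell by 2.08 ± 0.24 (limma adjusted p = 9.79e-05). With an offset of 64 these were -1.07 and -1.29.

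Smaller differences were found for a pair of oxygenase genes. *AT2G38240*, of a 2-oxoglutarate-dependent oxygenase that acts on jasmonate, read 65.2 and 50.4 at 00h, 47.0 at 04h, 14.9 at 08h, 27.9 and 9.2 at 12h, 92.2 at 16h and 54.6 at 20h. *CYP71B22*, a cytochrome P450 gene, read 49.3 and 31.9 at 00h, 15.7 at 04h, 15.5 at 08h, 34.9 and 15.3 at 12h, 82.8 at 16h and 45.3 at 20h. At 12h the A array was above the B array for both, by 0.80 and 0.70 log2 units, which exceeds the margin of either. At 20h and 00h against 04h to 12h the log2 changes were 0.84 ± 0.24 (SE; limma adjusted p = 0.0144) and 0.78 ± 0.23 (limma adjusted p = 0.0194). Without the filter on dim probe sets neither was called. With an offset of 64 the changes were 0.42 and 0.37, and with an offset of 1 they were 1.27 and 1.21.

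The 4 other metabolic genes showed little apart from 16h. *AT5G32470*, of a thiamin phosphate phosphatase in vitamin B1 synthesis, lay between 102.4 and 115.2 on the 6 arrays of 00h to 12h, at 136.8 at 20h and at 185.0 at 16h. Its change from 00h to 12h was 0.01 ± 0.21 log2 units and did not pass. *AT1G75960*, of the family of AMP-dependent synthetases and ligases, was too dim to be tested and read 5.4 and 6.5 at 00h, 6.1 at 04h, 15.4 at 08h, 11.2 and 8.3 at 12h, 43.0 at 16h and 14.5 at 20h. Here 16h stood alone, as it did for *CXE20*, a carboxylesterase gene with 2.2 and 4.9 at 00h, 2.2 at 04h, 3.5 at 08h, 2.7 and 2.0 at 12h, 12.1 at 16h and 2.4 at 20h. *ROXY2*, a glutaredoxin gene known from anther development, read 12.7 and 3.7 at 00h, 2.9 at 04h, 5.6 at 08h, 5.1 and 3.7 at 12h, 15.6 at 16h and 2.3 at 20h, so that 00h A came near 16h. *CXE20* and *ROXY2* were also too dim to be tested, and both left the set with an offset of 64. Because 16h is a single array, whether the differences of these dim genes exceed noise was not tested.

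**Figure D2:**
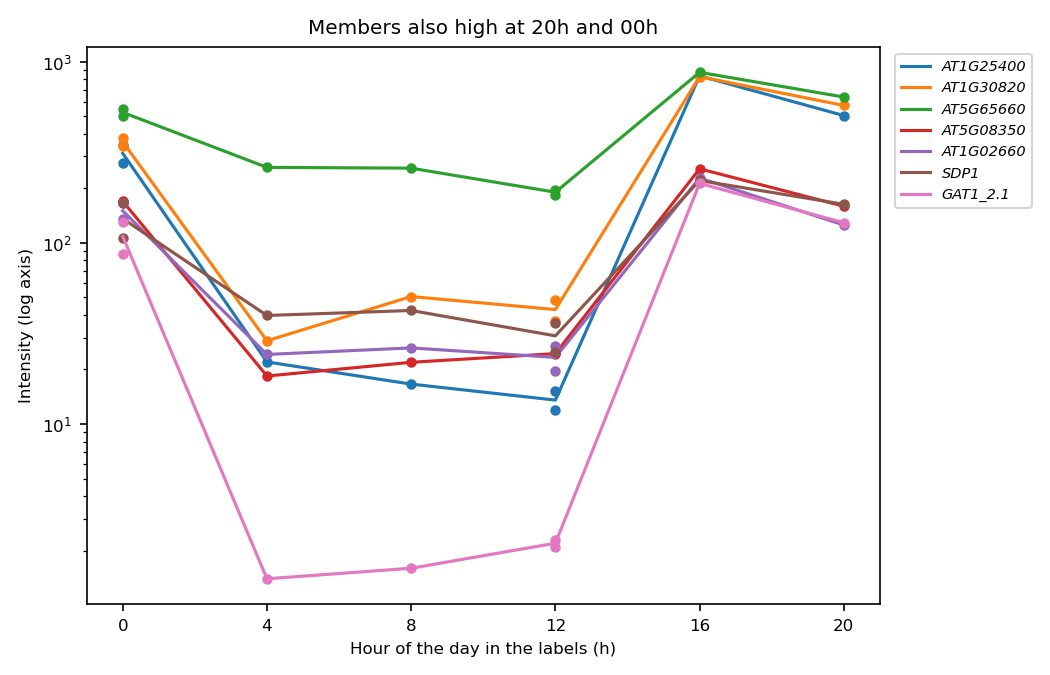
Intensity on a log axis against the hour in the labels for 7 genes that were also high at 20h and 00h; points are single arrays and lines join the means per hour. The arrays of 04h, 08h and 12h lie below those of the 3 other hours for each gene. Heights of different genes should not be compared, since each probe set has its own brightness.

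Some of the genes with the largest differences between the other hours have no role given here. *AT1G25400* read 347.7 and 275.4 at 00h, 22.0 at 04h, 16.6 at 08h, 15.2 and 11.9 at 12h, 832.8 at 16h and 503.2 at 20h. From 00h to 12h it fell by 3.46 ± 0.23 log2 units (SE; limma adjusted p = 3.36e-06), or 2.27 with an offset of 64, fell by 3.54 within the A arrays and fell by 3.38 within the B arrays. Its 20h and 00h level was above that of 04h to 12h by 3.63 ± 0.18. *AT5G08350* read 170.1 and 168.8 at 00h, 18.4 at 04h, 21.9 at 08h, 24.3 and 24.6 at 12h, 256.0 at 16h and 159.0 at 20h. Both had 1 low level through 04h, 08h and 12h and a higher one at the other hours, and *AT5G08350* fell by 2.20 ± 0.22 from 00h to 12h (1.40 with an offset of 64).

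*AT1G19380* read 249.7 and 332.7 at 00h, 133.6 at 04h, 74.5 at 08h, 124.0 and 74.9 at 12h, 526.5 at 16h and 245.5 at 20h. *AT5G65660*, chosen after its values were seen, read 503.5 and 544.7 at 00h, 260.6 at 04h, 258.0 at 08h, 183.9 and 196.2 at 12h, 871.8 at 16h and 636.9 at 20h. Neither came near 0 at any hour, and their falls from 00h to 12h were smaller: *AT1G19380* fell by 1.43 ± 0.26 (SE; limma adjusted p = 0.00156) and *AT5G65660* fell by 1.39 ± 0.21 (limma adjusted p = 0.000458). *AT1G16170* read 114.0 and 130.2 at 00h, 94.5 at 04h, 86.0 at 08h, 62.1 and 84.4 at 12h, 193.1 at 16h and 123.3 at 20h. Its fall from 00h to 12h of 0.64 ± 0.23 (limma adjusted p = 0.0489) was no longer called in 7 of 14 alternatives. The same held for *AT3G06750* (-0.56 ± 0.20; limma adjusted p = 0.048).

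Of the 10 genes placed in transcription and signalling, 6 were tested and 3 were called higher at 20h and 00h than at 04h to 12h. Over all probe sets tested 20.5% were higher and 45.3% were called in either direction. *AT4G18250*, which passed the filter only through 16h, was among the 3. *BZIP53* encodes a bZIP transcription factor known to pair with other bZIP proteins and to activate amino acid metabolism genes under energy shortage. It read 396.6 and 407.2 at 00h, 191.7 at 04h, 218.6 at 08h, 346.9 and 255.5 at 12h, 673.7 at 16h and 351.1 at 20h. The 12h A array was close to 20h, while the 12h B array was not. Its difference of 0.66 ± 0.18 between 20h with 00h and the hours from 04h to 12h passed (SE; limma adjusted p = 0.0126), and that between 12h and 00h did not (-0.41 ± 0.22; limma adjusted p = 0.165).

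*AT5G27920*, an F-box protein gene, had the clearest pattern of this group. F-box proteins choose the targets of ubiquitin ligases. It read 133.4 and 92.0 at 00h, 39.7 at 04h, 36.0 at 08h, 49.1 and 33.7 at 12h, 302.9 at 16h and 156.7 at 20h. All arrays of 20h and 00h were above those of 04h to 12h. The difference between the means of these hours was 1.43 ± 0.21 log2 units (SE; limma adjusted p = 0.000327), or 0.94 with an offset of 64. *AT4G18250*, of a receptor-like kinase, read 44.2 at 16h and 11.8 to 36.8 elsewhere, and its change there was 0.55 ± 0.19 (limma adjusted p = 0.0379). It was tested only because its 16h level lifted it over the filter, so this call is not support. It was not called without the filter, and the change was 0.24 with an offset of 64 and 0.95 with an offset of 1.

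The other genes of this group had no call. *AT3G56880*, of a VQ motif protein family that binds WRKY factors, read 162.8 and 162.2 at 00h, 134.1 at 04h, 157.5 at 08h, 153.8 and 149.8 at 12h, 236.3 at 16h and 161.4 at 20h. Apart from 04h and 16h its values lay between 149.8 and 162.8. *HHP2*, of a heptahelical membrane protein, read 48.8 and 52.4 at 00h, 24.3 at 04h, 22.0 at 08h, 43.0 and 26.4 at 12h, 77.7 at 16h and 36.2 at 20h, and *AT3G50650*, of the GRAS family of regulators, 60.8 at 16h and 20.7 to 41.9 elsewhere. *HHP2* passed in 5 of the alternatives at 20h and 00h against 04h to 12h, with both scalings and both blocks among them.

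*CML38*, a calmodulin-like calcium sensor gene known to respond to wounding and low oxygen, was too dim to be tested. It read 10.9 and 17.8 at 00h, 18.2 at 04h, 18.0 at 08h, 14.2 and 7.0 at 12h, 52.1 at 16h and 24.6 at 20h. *AT5G40460*, of a SIAMESE-related inhibitor of the cell cycle, read 6.2 and 14.8 at 00h, 10.0 at 04h, 12.5 at 08h, 13.9 and 9.4 at 12h, 25.7 at 16h and 12.6 at 20h. For both the 7 other arrays shared 1 low range and 16h lay above it. *AT5G65130*, of the AP2/ERF family of transcription factors, read 1.8 and 2.5 at 00h, 2.8 at 04h, 2.8 at 08h, 1.8 and 1.2 at 12h, 10.7 at 16h and 3.3 at 20h. *AT4G33280*, of the B3 domain family, read 18.1 at 16h and 0.8 to 9.4 elsewhere. The offset in log2(intensity + 16) compresses differences between such dim readings. Detection calls are not known here and 16h is a single array, so whether these differences exceed noise was not tested. *AT5G40460*, *AT5G65130* and *AT4G33280* left the set with an offset of 64 and stayed with an offset of 1. *CML38* stayed with either offset.

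Both genes placed in the cell wall group had no call between the other hours without a block for array letters. *EXLA1*, of the expansin-like family of cell wall proteins, had the largest margin of the 56 and read 19.4 and 26.8 at 00h, 46.0 at 04h, 28.7 at 08h, 24.8 and 14.8 at 12h, 104.6 at 16h and 36.0 at 20h. Its second highest hour was 04h, not 20h, and its difference between 20h with 00h and the hours from 04h to 12h was -0.04 ± 0.20. *AT1G21480*, of the exostosin family, read 21.1 and 37.6 at 00h, 49.0 at 04h, 51.7 at 08h, 23.7 and 31.3 at 12h, 78.3 at 16h and 53.2 at 20h.

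In stress and defence 3 genes were placed, and the 2 tested had no call with all 8 arrays and no block. Without 00h A, or with a block for the arrays of high hybridisation controls, *AT1G17600* was called higher at 20h and 00h (0.68 and 0.52 log2 units; limma adjusted p = 0.0125 and 0.0279). *AT5G39580*, a peroxidase gene, was too dim for a test and read 19.2 and 27.0 at 00h, 5.6 at 04h, 8.9 at 08h, 16.3 and 10.8 at 12h, 57.6 at 16h and 21.5 at 20h. The immune receptor genes *AT2G14080* and *AT1G17600*, both of the TIR-NBS-LRR class, had the A and B arrays of an hour far apart. *AT2G14080* read 43.9 and 59.4 at 00h, 65.1 at 04h, 67.1 at 08h, 75.3 and 40.4 at 12h, 111.7 at 16h and 78.5 at 20h. *AT1G17600* read 21.7 and 51.5 at 00h, 19.8 at 04h, 16.1 at 08h, 25.4 and 33.0 at 12h, 55.0 at 16h and 36.9 at 20h, so that 00h B came close to 16h.

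**Figure D3:**
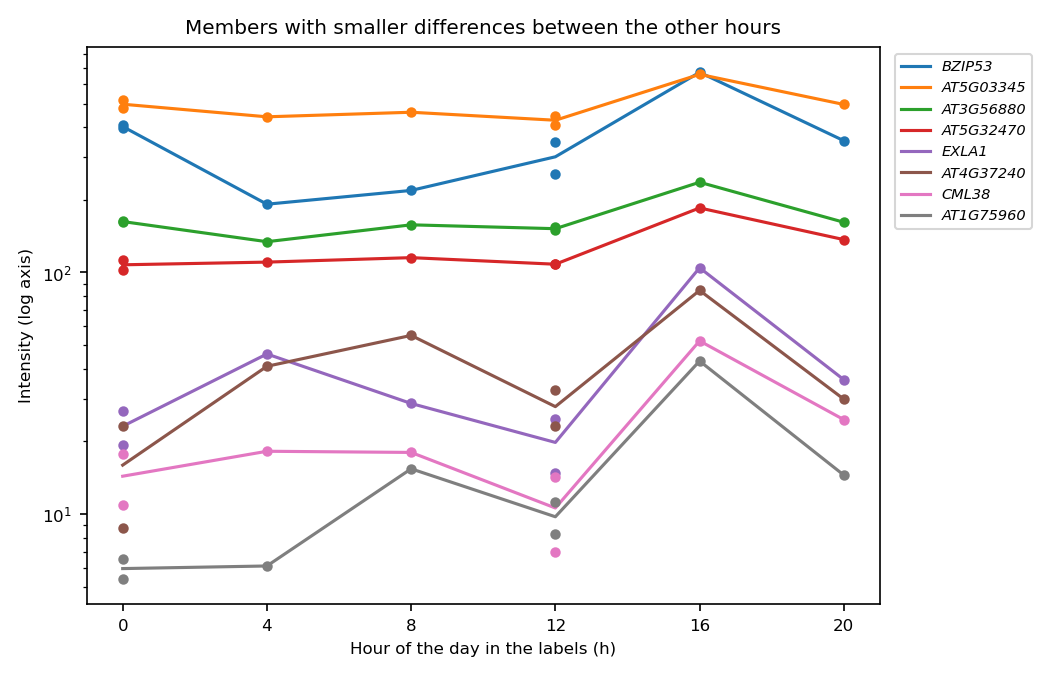
Intensity on a log axis against the hour in the labels for 8 genes with smaller differences between the other hours; points are single arrays and lines join the means per hour. 16h is the highest point of each, and at the other hours *AT5G03345*, *AT3G56880* and *AT5G32470* stay nearly level. Heights of different genes should not be compared.

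The remaining genes have no role given here. *AT2G42040* read 51.4 and 40.6 at 00h, 19.8 at 04h, 39.0 at 08h, 43.5 and 50.5 at 12h, 98.8 at 16h and 47.1 at 20h, and *AT2G41730* 38.8 and 21.4, 20.4, 29.7, 36.4 and 16.7, 68.3 and 31.6 in the same order. Neither was called between the other hours. The probe set of *AT2G41730* is of a kind whose probes can also match other transcripts. *AT5G65300* read 28.4 and 32.2 at 00h, 15.3 at 04h, 24.6 at 08h, 21.5 and 21.9 at 12h, 51.7 at 16h and 24.0 at 20h. *AT1G50040*, too dim for a test, read 25.4 and 26.1 at 00h, 14.5 at 04h, 18.8 at 08h, 5.0 and 6.4 at 12h, 48.9 at 16h and 26.5 at 20h. *AT4G37240*, chosen after its values were seen, ran against most: 23.1 and 8.8 at 00h, 40.9 at 04h, 54.9 at 08h, 32.5 and 23.2 at 12h, 84.3 at 16h and 29.9 at 20h. Its log2 difference between 20h with 00h and 04h to 12h was -0.57 ± 0.22 (SE; limma adjusted p = 0.0573), and it passed as lower with either block.

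Other genes called higher at 20h and 00h than at 04h to 12h were *AT4G16000*, *AT4G15690*, *AT1G22510*, *AT1G24530*, *AT2G36430* and *AT3G06750*, with log2 changes between 0.47 and 1.19. Leaving out 1 array ended this call for *AT2G36430* (00h A or 12h A), *AT3G06750* (00h A or 00h B) and *AT1G24530* (00h B). *AT4G15690* fell by 2.63 from 00h to 12h within the B arrays and by 1.14 within the A arrays, so its A and B arrays differed more than its margin. *AT5G03345*, chosen after its values were seen, lay between 408.7 and 515.4 on 7 arrays and at 660.7 at 16h. *AT3G08890* read 150.6 at 16h and 64.9 to 103.6 elsewhere, and *AT3G06150* 161.7 and 80.0 to 117.5, with no call for either. The other 10 genes were *AT5G18150*, *AT1G33600*, *AT1G66940*, *AT3G02820*, *AT2G41990*, *AT1G22330*, *AT1G41750*, *AT4G23930*, *AT1G30860* and *AT2G47720*. Along the chromosomes, 0 of the 55 genes found in the RefSeq gene order (assembly TAIR10.1) stood directly next to another.

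**Figure D4:**
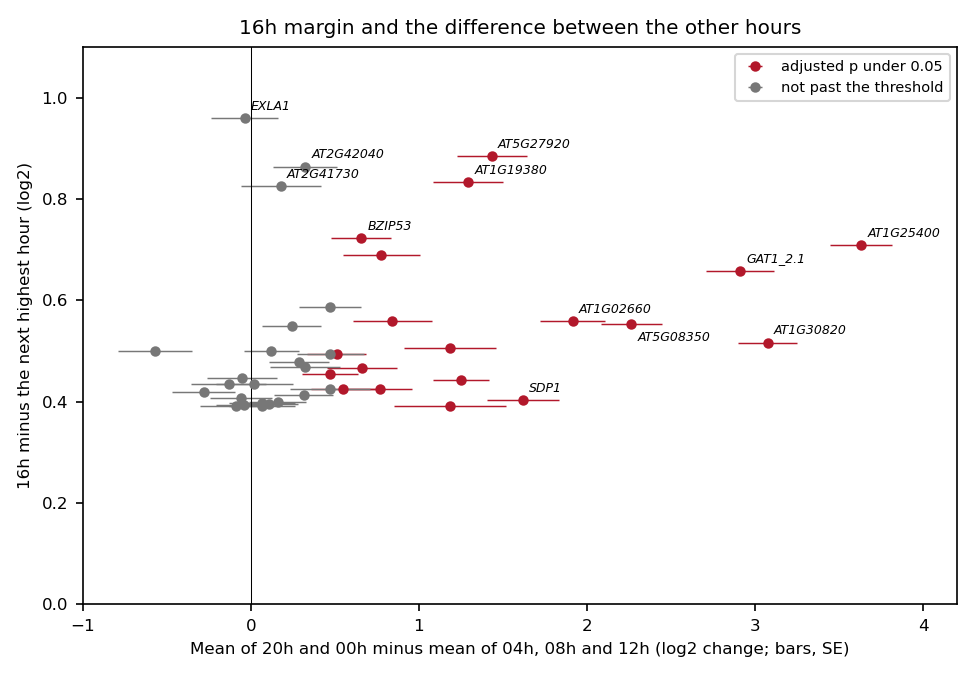
Each point is 1 of the 42 tested genes; the x axis gives the log2 change of 20h and 00h against 04h, 08h and 12h with its SE, and the y axis the 16h margin in log2 units that chose the gene. The 19 red points passed the test and all lie right of 0, while *EXLA1*, with the largest margin, lies at -0.04.

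The sugar starvation and dark list holds 27 genes, of which 8 have a named probe set. All 8 were lower at 12h than at 00h (median log2 change -3.84) and higher at 20h and 00h than at 04h to 12h. Earlier results of these data were known when the list was written, so its direction is not independent evidence. Only *AT1G25400* among the 8 had its highest mean at 16h and is among the 56. *AKINBETA1*, of a SnRK1 subunit, read 1806.3 and 1372.4 at 00h, 941.8 at 16h and 1395.9 at 20h. *MCCA* and *IVD*, both of leucine breakdown, read 744.8 and 203.8 at 16h and 1291.0 and 513.3 at 20h. The 7 others were thus below their highest hour at 16h, while *AT1G25400* went from 832.8 at 16h to 503.2 at 20h.

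No other list shared a gene with the 56. *STZ*, the 1 named gene of the touch and handling list, was also highest at 16h (170.9, with 133.9 and 146.6 at 00h, 152.9 at 20h and 23.7 to 44.1 at 04h to 12h). Its part in the levels of the 56 genes was not tested. *IAA29*, the 1 named gene of the shade and night growth list, also had its highest mean at 16h, by a margin of 0.06. It was too dim to be tested and read 12.8 at 16h and 16.5 on 12h A. The named genes of the cold and dehydration, iron deficiency and morning clock lists were highest at other hours. *GI*, the 1 named evening clock gene, was at 372.3 at 08h and 7.8 at 16h. The guard cell marker *FMA* read 41.5 at 16h and 44.5 to 88.1 elsewhere, and the phloem marker *SWEET11* 825.9 and 501.9 to 1244.3. The jasmonate, salicylate, sulphur starvation, epidermis and flower lists have no named probe set and were not analysed here.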

How the data were processed

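The deposited table holds 1 linear intensity per probe set and array, made by the authors with MAS5 per the submitters' processing notes. No version or genome build is given in the sources used here. With the top and bottom 2% of values removed, each array averages 100.01, so the arrays had been scaled alike and a change in the total amount of mRNA is not seen. Median intensities ran from 29.9 to 37.6, and the number of arrays limits the precision.

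The 64 control probe sets were left out and log2(intensity + 16) was taken. With an intensity trend in eBayes, limma 3.58.1 under R 4.3.3 fitted the hour as a factor to all 8 arrays, with 2 residual degrees of freedom. Only the 13513 probe sets with 1 gene are named, with symbols updated through RefSeq (TAIR10.1). Promoter motifs and sequences were not analysed here.

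The genes and lists were chosen with earlier results of these data known, and the roles were assigned after the values were seen. Every gene of the set may be named. Values on every array are given for the 20 with the largest margin, for those in a fixed list and for up to 3 more per role. Letters A and B recur at 00h and 12h only. Over the probe sets tested, the A minus B difference at 00h correlated at 0.297 with that at 12h. There are only 2 pairs, too few to settle a pairing, so a fit with the letter as a block stays an alternative.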

Additional observations from a re-analysis of the deposited data

How the results depend on the processing

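Of the 100 probe sets, 72 to 94 stayed among the 100 under the other offset, the scalings and the left-out arrays, but 31 with an offset of 1, which favours dim probe sets. Of the 56 genes 13 stayed with that offset, 38 with an offset of 64, and 7 under all 9 alternatives. Leaving out 1 array of 00h or 12h kept 91 to 94. With only the 6 arrays of low hybridisation controls, an alternative chosen after seeing the data, 88 stayed. Without the filter, 10 genes were lower at 12h vs 00h (16 with it), 8 higher at 20h vs 12h (13) and 12 higher at 20h and 00h (19). The calls over all probe sets fell as well, to 1946 (2536 with the filter), 1061 (1783) and 2287 (2802) in the same order. With the lowest 60% left out, fewer genes were tested (22) and 12 were higher at 20h and 00h. With the letter as a replicate block, as with the block for the hybridisation controls, 1 gene was higher at 12h (*AT3G02820*) and 1 lower at 20h and 00h (*AT4G37240*). Over all probe sets the replicate block raised the calls too. They became 3169 lower at 12h vs 00h (from 2536) and 2471 higher at 20h vs 12h (from 1783). The replicate block gave 17 genes lower at 12h and 17 higher at 20h vs 12h, *AT1G21480* among them (0.87; limma adjusted p = 0.0283). With 16h left out of the mean that the filter uses, also chosen after seeing the data, 40 genes were tested, with 16 lower at 12h, 13 higher at 20h vs 12h and 18 higher at 20h and 00h. Leaving out each array of 00h and 12h gave 12 to 15 lower and 0 to 1 higher at 12h vs 00h, 12 to 14 higher and 0 lower at 20h vs 12h, and 16 to 21 higher and 0 to 1 lower at 20h and 00h. The single gene was *AT4G37240* in each case. No call turned its sign in 14 alternatives. At 12h vs 00h the filters, the fit without the intensity trend and both blocks left each log2 change as it was. In these the sign could not turn, and both blocks gave the same counts of calls. Of the 16 genes lower at 12h, 9 passed in every alternative that tested them. Among the 9, *GAT1_2.1* was tested in only 12, being too dim with an offset of 1 or with the lowest 60% left out. At 12h vs 00h, *AT2G38240* and *AT4G16000* were not called without 12h B, nor *AT1G24530* and *AT1G22510* without 00h B or 12h A. *AT3G06750* also lost its call at 20h and 00h with quantile normalization and without the intensity trend. Each hour apart from 00h and 12h rests on 1 array, and no depth or detection call is known here.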
